A study of Mus musculus with 4 samples.

Results

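The levels of 8 genes, Malat1, Neat1, Meg3, Kcnq1ot1, Gm26917, Gm42418, AY036118 and Lars2, were followed by single-cell RNA sequencing in brown adipose tissue (BAT) of mice, in the cells other than mature fat cells, called the stromal vascular fraction (SVF). They are 8 of the 32285 genes counted, and they were picked by symbol because they had headed the clusters of cell barcodes with few unique molecular identifiers (UMIs, 1 for each captured RNA molecule) in earlier clusterings of these libraries. The study compared BAT of lean and of obese, diabetic mice, in 4 libraries of 1 group each. The groups were WT mice (10 weeks old), db/db mice at 8 weeks (8-week db/db, db/db 8w in the plots), db/db mice at 16 weeks (16-week db/db, db/db 16w in the plots) and mice on a high-fat diet (HFD). All carry the strain label C57BL6/J. db/db mice carry a mutated leptin receptor gene, which makes them overeat, become obese and develop type 2 diabetes. The HFD library is labelled as 10 weeks old, whereas the study's methods start the diet at 10 weeks of age, so the age of these mice is uncertain. Per those methods the mice were males and the SVF of 3 animals was pooled for each library. With 1 library per group there is no replicate, so no test was possible between groups, and each interval given is a 95% interval for counting error that does not cover the spread between mice, pools or preparations.

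Malat1 and Neat1 are neighbouring long non-coding RNAs that stay in the nucleus: Malat1 gathers in nuclear speckles, where splicing factors are stored, and Neat1 is the scaffold on which paraspeckles are built. Meg3 and Kcnq1ot1 are imprinted long non-coding RNAs: Meg3 is made from the maternal copy of the Dlk1-Dio3 domain, and Kcnq1ot1 is made from the paternal copy of the Kcnq1 domain and silences nearby genes on that chromosome. Lars2, by contrast, encodes the leucyl-tRNA synthetase of mitochondria, and Gm26917, Gm42418 and AY036118 are poorly described loci beside each other on chromosome 17, 2 of which lie over a copy of a ribosomal RNA (rRNA) gene. Nuclear retention is thus textbook knowledge for the 4 long non-coding RNAs and was not measured here for any of the 8.

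The libraries differed in ways that bear on all 8 genes. They held from 6517 to 18306 barcodes and from 28504069 to 61828295 UMIs, with median depths of 4129 UMIs per barcode in WT, 1471.5 in 8-week db/db, 2433 in 16-week db/db and 2263.5 in HFD. The median share of UMIs from mitochondrially encoded (mt-) genes was 6.94%, 10.4%, 0.763% and 21.5% in the same order. The 16-week db/db library stood apart: Xist, which is made in female cells, had a UMI in 34.3% of its barcodes and in at most 0.337% of those of the other libraries, although the mice were described as males, and its mt- share was the lowest. The mutated leptin receptor gene Lepr had 25, 18, 1 and 29 UMIs, too few to check the labels by. Results that use the 16-week library are therefore given with the other libraries beside them. Between 16 and 97 barcode sequences were shared by any pair of libraries, at most 0.629% of the smaller library. All barcodes were kept, since the members were sought among shallow ones, and doublets were not removed. The limits given in the study's methods on genes, UMIs and mt- share would pass 71.5%, 63.6%, 89.5% and 31.3% of barcodes.

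Malat1 and Neat1 share an element near their 3′ ends. It is shown because it is known to give these RNAs an end that is stable without a usual poly(A) tail, while the library kit captures RNA by stretches of A. The sequences are from GENCODE vM21 on GRCm38 (mm10), in which all 8 gene IDs were found. Malat1 (chr19:5795690-5802672, minus strand, 1 exon of 6983 bases in its longest transcript) and Neat1 (chr19:5824708-5845478, minus strand, 20771 bases) hold the following stretches, at chr19:5795967-5796029 for Malat1 and at the very 3′ end, chr19:5824708-5824761, for Neat1, both exonic. Capitals mark a U-rich stretch and an A-rich tract downstream of it (T stands for U).
Malat1: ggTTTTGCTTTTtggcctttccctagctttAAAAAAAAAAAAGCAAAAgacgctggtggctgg
Neat1: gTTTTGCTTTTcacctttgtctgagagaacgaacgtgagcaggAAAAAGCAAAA
The shared tract AAAAAGCAAAA was found in the last 400 bases of the longest transcript of 65 of 43318 genes (0.150%) on the sense strand, and its reverse complement in 47 (0.109%). With the stretch TTTTGCTTTT upstream of it in the same window, it was found in 2 of the 43318, Malat1 and Neat1 themselves. The tract was defined as the longest 3′ end of Neat1 also found in the last 400 bases of Malat1, so both hold it by choice. The U-rich stretch is the reverse complement of the tract's last 10 bases.

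Meg3 lies at chr12:109541001-109571726 (plus strand, 5 exons in its longest transcript). Kcnq1ot1 (chr7:143203458-143296549, minus strand, 1 exon, within Kcnq1 on the opposite strand) carries runs of A inside the transcript. The longest is shown because a primer of T bases can start on such a run as well as on a poly(A) tail. It lies, in capitals, in the single exon at chr7:143226925-143227010.
Kcnq1ot1: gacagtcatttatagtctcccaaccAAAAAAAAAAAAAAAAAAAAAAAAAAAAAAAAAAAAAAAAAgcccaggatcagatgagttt
Kcnq1ot1 held 10 runs of 10 or more A. Such a run was found in 9.74% of the longest transcripts of all genes and in 25.8% of those of 3000 bases or more, so it is not rare in long transcripts. Where along these genes the counted reads lay was not analysed here.

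The chromosome 17 loci overlap each other. Gm42418 (chr17:39846958-39848788, plus strand, 1831 bases) and AY036118 (chr17:39847113-39848035, minus strand, 923 bases) are read from opposite strands of the same DNA, and all 923 bases of AY036118 are the reverse complement of bases 156 to 1078 of Gm42418. The stretch below is shown to make that plain: the capitals of each line are the reverse complement of those of the other, at chr17:39847976-39848035.
AY036118: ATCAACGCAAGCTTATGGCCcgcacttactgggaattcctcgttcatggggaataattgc
Gm42418: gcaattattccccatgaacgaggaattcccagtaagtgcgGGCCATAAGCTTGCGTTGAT
AY036118 lies wholly inside the annotated rRNA gene CT010467.1 (chr17:39846353-39848827, minus strand) and on its annotated strand. Bases 1 to 1244 of Gm42418 (67.9%) are the opposite strand of that annotation. Which strand holds the sequence of the rRNA itself was not examined here. RefSeq lists Gm42418 as a synonym of Rn18s-rs5, a sequence related to 18S rRNA. Whether the counting used the strand is not given in the sources used here, and without it the reads of Gm42418 and AY036118 cannot be told apart. Gm26917 (chr17:39843013-39846341, plus strand) lies just upstream and Lars2 on another chromosome (chr9:123366927-123462666, plus strand). In their longest transcripts neither shares a 20-base word with CT010467.1 or with the mitochondrial rRNA genes mt-Rnr1 and mt-Rnr2. Of the members, only Gm42418 and AY036118 thus matched the rRNA genes searched. Other rRNA sequences were not searched, so a likeness of Gm26917 or Lars2 to those is not excluded.

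The 8 genes together took 10.8% of all UMIs in WT, 7.97% in 8-week db/db, 2.06% in 16-week db/db and 7.69% in HFD. Nearly all of that was Gm42418 and Malat1. Gm42418 stood at 73420 CPM (UMIs scaled to a total of 1000000, from the UMIs summed over all barcodes of a library) in WT, 47540 in 8-week db/db, 9602 in 16-week db/db and 46454 in HFD. It had more UMIs, not corrected for length, than any other gene in WT, 8-week db/db and HFD, and was the fifth in 16-week db/db, where it was lower than in WT by 2.93 on the log2 scale (log2 ratio −2.93, interval −2.94 to −2.93). Malat1 stood at 29735 CPM in WT, 28726 in 8-week db/db, 10449 in 16-week db/db and 26834 in HFD. Its levels in WT, 8-week db/db and HFD lay within 0.15 on the log2 scale, and 16-week db/db lay apart at −1.51 against WT.

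Neat1 stood at 949 CPM in WT, 643 in 8-week db/db, 99.5 in 16-week db/db and 985 in HFD. Its order was thus HFD, WT, 8-week db/db and, far below, 16-week db/db (−3.25 against WT), and HFD and WT differed by 0.05 on the log2 scale. Kcnq1ot1 stood lowest in 16-week db/db too, with 302 CPM in WT, 151 in 8-week db/db, 15.1 in 16-week db/db and 244 in HFD. The 16-week db/db value was 0.0500 times that of WT, from 431 UMIs in all. Meg3 stood at 984 CPM in WT, 722 in 8-week db/db, 100.3 in 16-week db/db and 344 in HFD, so that, unlike Neat1, it was also low in HFD (log2 ratio −1.52, interval −1.54 to −1.49).

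Gm26917 stood at 346 CPM in WT, 258 in 8-week db/db, 57.4 in 16-week db/db and 120 in HFD, and Lars2 at 1346, 920, 225 and 649 in the same order. Both were ordered WT, 8-week db/db, HFD and 16-week db/db. AY036118 differed from the locus it overlaps: it stood at 804 CPM in WT, 791 in 8-week db/db, 60.9 in 16-week db/db and 1272 in HFD, which made it the only member clearly higher in HFD than in WT (log2 ratio 0.66), whereas Gm42418 was lower there (−0.66).

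**Figure D1:**
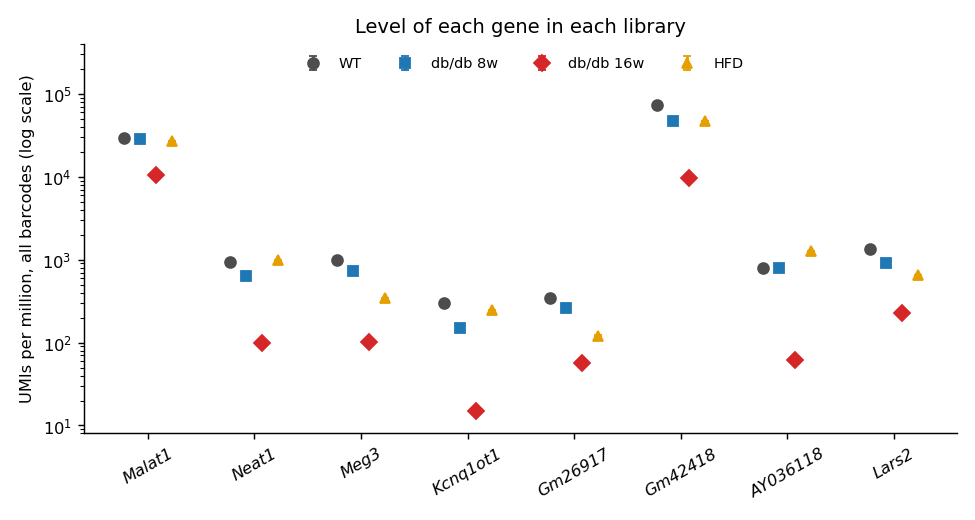
Level of each of the 8 genes in each of the 4 libraries, in CPM over all barcodes on a log axis; each point is 1 library and the error bars, mostly hidden by the points, are exact Poisson 95% intervals of the counts. For all 8 genes the 16-week db/db point is the lowest, from 10449 for Malat1 down to 15.1 for Kcnq1ot1.

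Against WT, all 8 members were lower by 2-fold or more in 16-week db/db, where 27.6% of all genes tested were lower by that much and 17.3% higher. The median log2 ratio of the 8 was −3.09, and that of all genes tested was −0.25. In HFD 3 of the 8 (Meg3, Gm26917 and Lars2) were lower by 2-fold or more, beside 11.8% of all genes, and none was higher by 2-fold, beside 15.2% of all genes. In 8-week db/db 1 of the 8 (Kcnq1ot1, at 0.499 times its level in WT) was lower by 2-fold, beside 5.10% of all genes lower and 7.30% higher. The 3 comparisons share the WT library. Composition also differed between the libraries, so a lower level over all barcodes can come from fewer cells of a type or from less of the RNA per cell, and values within marker gates are given below.

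Within single barcodes Gm42418 could take up most of the RNA. The median barcode gave it 6.54% of its UMIs in WT, 5.30% in 8-week db/db, 0.781% in 16-week db/db and 5.04% in HFD, and the highest barcode 59.96%, 80.3%, 67.7% and 48.1%. Barcodes in which it took 20% or more numbered 669 in WT (8.04% of barcodes), 558 in 8-week db/db (3.05%), 76 in 16-week db/db (1.17%) and 141 in HFD (0.808%). In WT these were not the shallowest barcodes, with a median of 3045 UMIs and an mt- share of 7.78%, whereas in HFD their median was 1198 UMIs and their mt- share 34.2%. Malat1 took a median of 2.73%, 2.13%, 0.367% and 2.06% of a barcode's UMIs, and at least 20% in 34, 114, 8 and 16 barcodes.

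The members were picked for standing high in shallow barcodes, so their dependence on depth is given as a description and supports nothing further. Barcodes were called shallow below 1000 UMIs and deep at 4000 or more. The deposited matrices held none under 500 UMIs, and the HFD library none under 851, so its shallow band is narrow. Shallow barcodes numbered 823 in WT, 6970 in 8-week db/db, 1325 in 16-week db/db and 1660 in HFD, with 1.24%, 7.82%, 3.38% and 2.67% of the UMIs. The description as RNAs of shallow barcodes held in part of the libraries and for part of the genes.

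Malat1 stood at 36599 CPM in shallow and 24673 in deep barcodes of WT, 28804 and 24499 in 8-week db/db, 15373 and 8659 in 16-week db/db, and 10104 and 27252 in HFD. It was thus higher in shallow barcodes in 3 libraries (log2 ratios 0.57, 0.23 and 0.83) and lower in HFD (−1.43, interval −1.45 to −1.41). Nor did its level climb steadily as depth fell. In WT it was 36599 CPM in the bin that starts at 500 UMIs, 61552 in that from 1000, 58314 from 2000, 35992 from 4000 and 20979 at 8000 or more, and in 8-week db/db and 16-week db/db it also peaked in the bin from 1000 to 2000 UMIs. In HFD the peak lay deeper, with 30433 CPM from 4000 to 8000 UMIs.

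The other 3 long non-coding RNAs went the way of Malat1. Neat1 had log2 ratios of shallow over deep of 0.58 in WT, 0.47 in 8-week db/db, 1.25 in 16-week db/db and −0.96 in HFD. Meg3 had 0.24, 0.16, 0.99 and −2.84, the last from 58.2 CPM in shallow and 418 in deep barcodes. Kcnq1ot1 had −0.04, 0.17, 1.65 and −1.27, and its interval in WT (−0.27 to 0.19) included no difference. All 4 were below 0 in HFD, the library with the highest mt- share, and Meg3 was there among the lowest 0.647% of all genes tested.

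Gm26917 was the member most tied to depth in WT and 8-week db/db. It stood at 1198 CPM in shallow and 225 in deep barcodes of WT, a log2 ratio of 2.41 (interval 2.30 to 2.52), followed by 1.78 in 8-week db/db and 1.53 in 16-week db/db, but by 0.31 in HFD (interval 0.09 to 0.52). AY036118 was higher in shallow barcodes of every library (0.78, 1.05, 1.79 and 1.79 in WT, 8-week db/db, 16-week db/db and HFD), and so was Gm42418 (0.35, 1.03, 2.30 and 1.27). Lars2 was higher in 3 libraries (0.20, 2.40 and 0.92 in 8-week db/db, 16-week db/db and HFD) and lower in WT, with 965 CPM in shallow and 1284 in deep barcodes (−0.41, interval −0.53 to −0.30).

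Counted by size, 1 of the 8 was 2-fold or more higher in shallow barcodes of WT, 3 in 8-week db/db, 6 in 16-week db/db and 2 in HFD, where 3 were 2-fold or more lower. Over all genes tested 1.48%, 0.857%, 20.3% and 0.956% were that much higher and 30.9%, 2.10%, 22.5% and 34.4% that much lower. The median log2 ratio of the members was 0.46, 0.35, 1.59 and −0.33, and that of all genes tested −0.63, −0.28, −0.03 and −0.81. These shares describe the choice of the members and nothing is read from them.

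**Figure D2:**
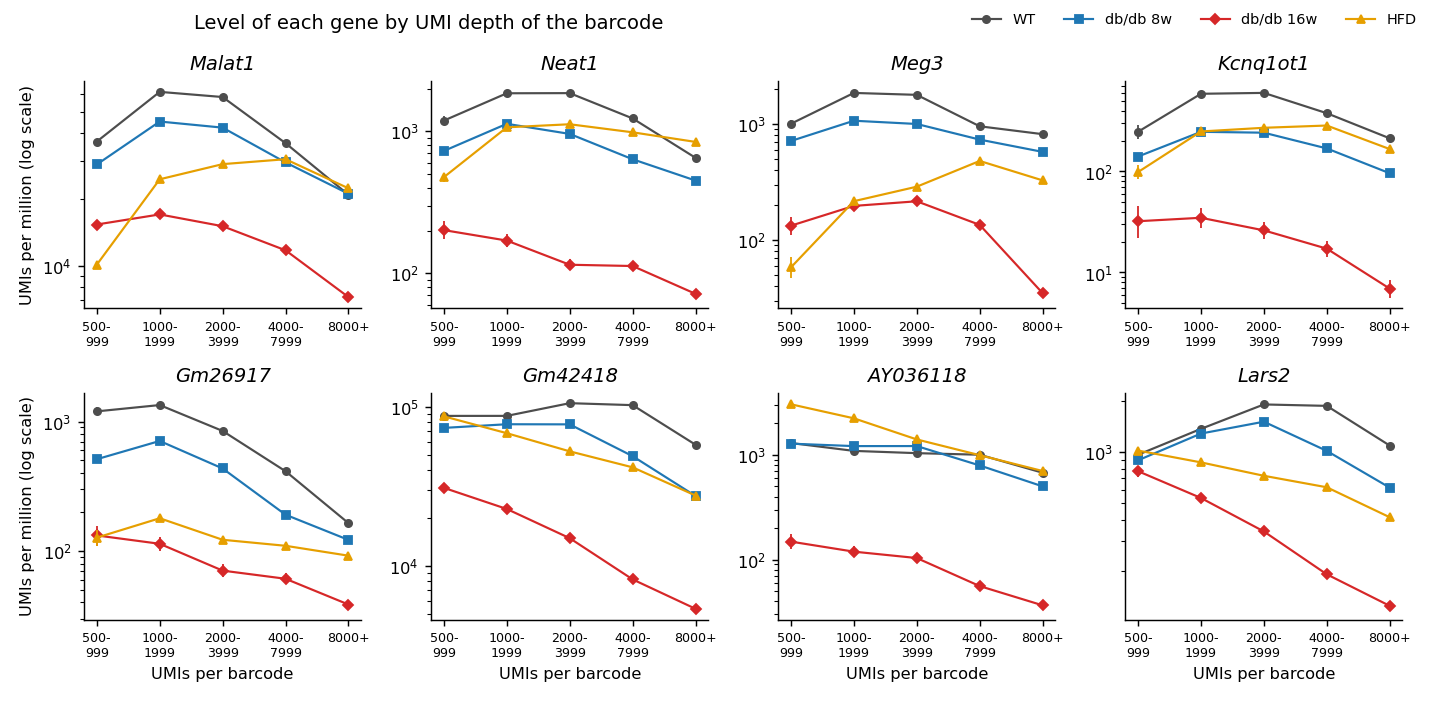
Level of each gene, in CPM on a log axis, in 5 bins of UMIs per barcode, with a line for each library and exact Poisson 95% intervals. For the long non-coding RNAs (top row) most lines peak at intermediate depth and the HFD line is lowest in the shallowest bin, while AY036118 and, in 16-week db/db and HFD, Gm42418 and Lars2 are highest in the shallowest bin.

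Shallow and deep barcodes differed in their cells as well. Barcodes were sorted into gates by markers (Pdgfra, Col1a1, Dcn and 5 others for stromal cells, C1qa, Csf1r, Adgre1 and 7 others for macrophages, with at least 3 marker UMIs of which 75% were of that type). Over all depths the stromal gate held 69.1%, 50.4%, 17.9% and 16.5% of barcodes and the macrophage gate 18.5%, 19.5%, 39.8% and 22.8% in WT, 8-week db/db, 16-week db/db and HFD. From shallow to deep barcodes the macrophage gate went from 3.89% to 21.3% of barcodes in WT, from 5.28% to 38.6% in 8-week db/db, from 8.15% to 74.5% in 16-week db/db and from 10.1% to 36.6% in HFD. Barcodes with markers of several types, called mixed, went from 22.8% to 3.73%, 44.7% to 5.89%, 14.2% to 3.20% and 73.5% to 21.0%. The ratios were therefore computed again inside the stromal gate.

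Inside the stromal gate the picture was close to that over all barcodes in WT, 16-week db/db and HFD. Malat1 had log2 ratios of shallow over deep of 0.74 in WT, 0.97 in 16-week db/db and −1.66 in HFD, Meg3 had 0.53, 0.78 and −2.61, and Gm26917 had 2.61, 2.23 and −0.02. The HFD values rest on 127 shallow barcodes, and the interval for Gm26917 there ran from −0.98 to 0.79. In 8-week db/db, with 3186 shallow and 2820 deep barcodes, Malat1 (0.04), Meg3 (−0.13), Kcnq1ot1 (−0.04) and Lars2 (−0.13) lay within 0.13 of 0, while Neat1 (0.35), Gm26917 (1.56), Gm42418 (0.72) and AY036118 (0.67) were higher in shallow barcodes. In the macrophage gate of 8-week db/db all 8 were higher in the 368 shallow than in the 1983 deep barcodes, with 0.86 for Malat1, 1.57 for Gm42418 and 2.30 for Gm26917.

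**Figure D3:**
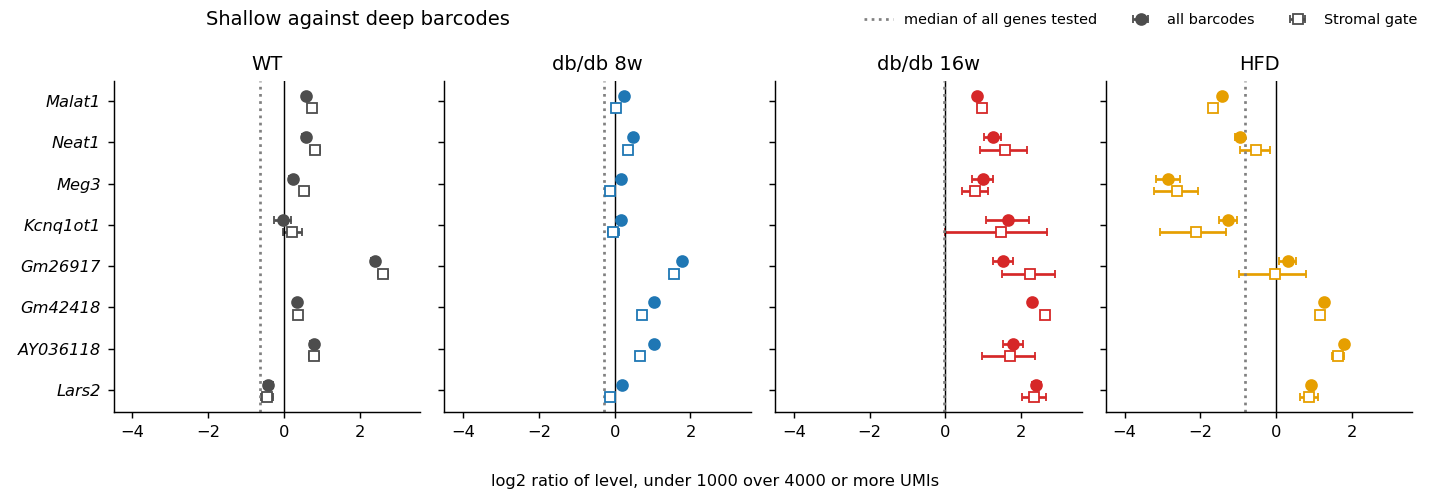
Log2 ratio of the level in barcodes under 1000 UMIs over that in barcodes with 4000 or more, for each gene in each library, over all barcodes (filled circles) and inside the stromal gate (open squares), with exact conditional 95% intervals and the median of all genes tested as a dotted line. In HFD the 4 long non-coding RNAs lie below 0, from −0.96 for Neat1 to −2.84 for Meg3 over all barcodes, and 3 of the other 4 lie above 0 in both sets.

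The clearest difference among the members was between cell types. To keep depth alike, barcodes with 1000 to under 4000 UMIs were compared between the gates. Meg3 stood at 2732 CPM in stromal and 30.8 in macrophage barcodes of WT, 1763 and 32.5 in 8-week db/db, 762 and 2.43 in 16-week db/db, and 1426 and 10.3 in HFD. The log2 ratios were 6.47 (interval 6.07 to 6.91), 5.76 (5.47 to 6.07), 8.29 (7.07 to 9.92) and 7.11 (6.72 to 7.53). Every library thus had Meg3 in stromal and nearly none in macrophage barcodes.

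Meg3 was also low in endothelial barcodes, with 24.2 CPM in 8-week db/db, 7.23 in 16-week db/db and 10.7 in HFD in this depth band. In HFD it was 1334 CPM in barcodes gated by mural (vessel wall) markers, near its stromal level. With each barcode thinned to 500 UMIs, a Meg3 UMI was found in 40.8% of stromal barcodes of WT, 39.0% in 8-week db/db, 23.7% in 16-week db/db and 35.6% in HFD. In macrophage barcodes it was found in 1.04%, 1.88%, 0.00% and 0.428%. Whether these UMIs came from free RNA in the droplets, from doublets or from the cells was not tested. The shares before thinning were 79.6%, 68.1%, 58.7% and 67.7% of stromal and 9.86%, 7.59%, 0.770% and 3.05% of macrophage barcodes, at median depths of 4664.5, 1780, 2761.5 and 3823.5 UMIs for stromal and 4763, 4566.5, 5515 and 3479 for macrophage barcodes. The 0 of 2597 macrophage barcodes in 16-week db/db, in this draw of 500 UMIs from each, allows a share of up to 0.116% at that depth (3 counts of the total), with an exact upper limit of 0.142%.

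Kcnq1ot1 leaned the same way with smaller ratios. It stood at 868 CPM in stromal and 88.4 in macrophage barcodes of WT (log2 ratio 3.30), 382 and 53.5 in 8-week db/db (2.83), 63.7 and 14.1 in 16-week db/db (2.18), and 585 and 137 in HFD (2.09). Endothelial barcodes lay between the gates, above macrophages by 1.17 in 8-week db/db, 0.96 in 16-week db/db and 0.96 in HFD on the log2 scale. After thinning, a Kcnq1ot1 UMI was found in 19.2%, 11.6%, 2.83% and 20.5% of stromal and 2.66%, 2.16%, 0.501% and 5.04% of macrophage barcodes.

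Malat1 was higher in stromal than in macrophage barcodes by 0.83, 1.11, 1.58 and 0.98 on the log2 scale in WT, 8-week db/db, 16-week db/db and HFD, with 69261 against 39076 CPM in WT. Neat1 did not follow it. Its log2 ratio was −0.18 in WT, 0.10 in 8-week db/db, −0.08 in 16-week db/db (interval −0.32 to 0.16) and −1.35 in HFD, where macrophage barcodes had 1746 and stromal 684 CPM. In WT the sign for Neat1 turned to 0.09 under a stricter gate (at least 5 marker UMIs, 90% of 1 type), so no direction is given for that library at this depth. Over all depths Neat1 had −0.78 in WT, 0.33 in 8-week db/db, 0.43 in 16-week db/db and −0.87 in HFD.

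For the other 4 genes the sign or the size differed between libraries. The log2 ratios were −0.05, 0.67, 0.89 and 0.15 for Gm42418, 0.36, −0.25, 0.27 and 0.02 for Gm26917, 0.30, 0.58, 1.24 and 0.05 for AY036118, and −0.44, 0.60, 0.41 and 0.33 for Lars2, in WT, 8-week db/db, 16-week db/db and HFD. Over all depths, 2 of the 8 members were 2-fold or more higher in stromal than in macrophage barcodes of WT, 3 in 8-week db/db, 6 in 16-week db/db and 2 in HFD, beside 25.9%, 25.3%, 19.6% and 18.6% of all genes tested. None was 2-fold lower, beside 14.2% to 19.4% of all genes tested. Meg3 was among the members counted in each library and stood above 98.5%, 97.1%, 98.1% and 99.8% of all genes tested.

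**Figure D4:**
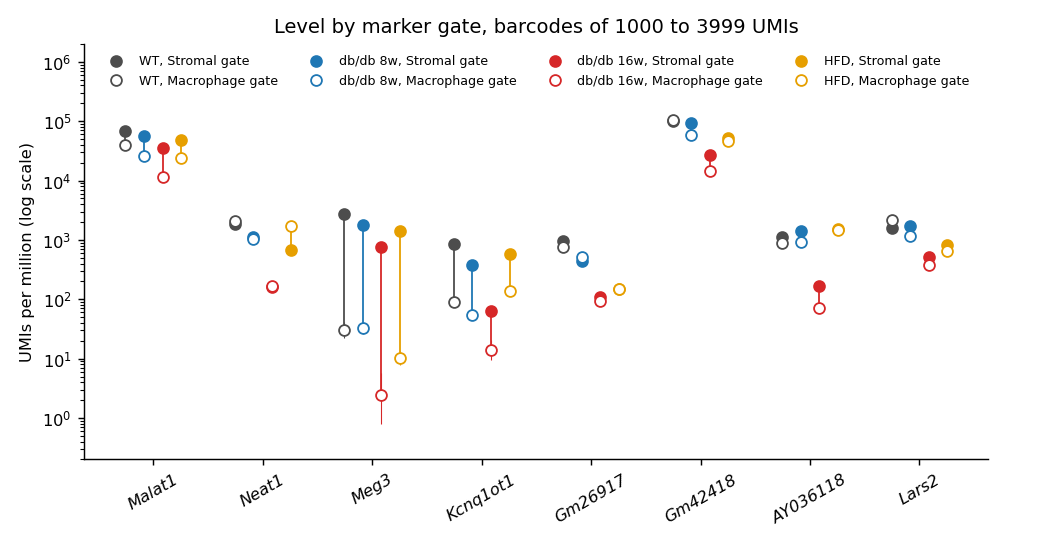
Level of each gene, in CPM on a log axis, in stromal (filled) and macrophage (open) barcodes of 1000 to under 4000 UMIs in each library; thin bars on the points are exact Poisson 95% intervals and lines join the gates of a library. Meg3 has the longest lines, from 2732 to 30.8 in WT, Kcnq1ot1 the next, and for Gm42418, Gm26917 and Lars2 the points nearly meet in most libraries.

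The levels of the libraries were then compared again inside each gate at 1000 to under 4000 UMIs. In the stromal gate 7 of the 8 members were 2-fold or more lower in 16-week db/db than in WT, beside 19.9% of all genes tested lower and 21.8% higher, and Malat1 was just short of it with −0.995 (log2). In the macrophage gate 6 members had enough UMIs to be set against all genes, and all 6 were 2-fold or more lower, beside 16.1% of all genes tested lower and 32.2% higher. They ran from −1.75 for Malat1 to −3.63 for AY036118. Meg3 had 5 UMIs in that gate of 16-week db/db, for a value of −3.66 with an interval of −5.35 to −2.34. The make-up of a gate also differed between these libraries: the stromal marker Pi16 stood at 77.6 CPM in the stromal gate of 16-week db/db and 2084 in that of WT, over all depths, and its part in the low levels was not tested. For Meg3 in HFD the value depended on the gate: it was −1.52 against WT over all barcodes, −0.94 in the stromal gate at this depth and 0.08 in the stromal gate over all depths, while stromal barcodes made up 16.5% of the HFD and 69.1% of the WT library. AY036118 was higher in HFD than in WT in both gates, by 0.45 in stromal and 0.70 in macrophage barcodes. Neat1 in HFD, level with WT over all barcodes, was −1.41 in the stromal gate and −0.24 in the macrophage gate at this depth, and −0.29 in the stromal gate over all depths. In 8-week db/db the values in the stromal gate at this depth ran from −1.19 for Kcnq1ot1 to 0.34 for AY036118. Some signs in the stromal gate turned with the depth used. Malat1 was −0.29 in 8-week db/db and −0.55 in HFD at this depth, but 0.27 and 0.37 over all depths. Kcnq1ot1 in HFD went from −0.57 to 0.33, and Lars2 in 8-week db/db from 0.12 to −0.23.

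The share of mt- UMIs, which is often read as a sign of damaged cells, was compared within a band of depth. Among barcodes of 1000 to under 4000 UMIs, those with 15 to 50% mt- UMIs were set against those under 15%. The 16-week db/db library had too few for this. Gm26917 was higher in the barcodes with more mt- UMIs in each of the 3 libraries, by 0.86 in WT, 0.69 in 8-week db/db and 0.68 in HFD on the log2 scale. Depth still differed inside the band. In the bin from 1000 to under 2000 UMIs its values were 0.11 (interval −0.004 to 0.22), 0.27 and 0.40 (−0.09 to 0.94). From 2000 to under 4000 UMIs they were 1.02, 0.88 and 0.53. Below 1000 UMIs it had 1.52 in WT and −0.32 in 8-week db/db. The values that follow are for the whole band. Neat1 had 0.39, 0.40 and 0.01, Malat1 0.28, 0.26 and −0.09, and Kcnq1ot1 −0.26, 0.22 and −0.16. Meg3 had 0.37 and 0.53 in WT and 8-week db/db and −0.61 in HFD.

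For the rRNA-like loci and Lars2 the libraries stood the other way round. Gm42418 had −0.40 in WT, −0.07 in 8-week db/db and 0.41 in HFD, AY036118 had −0.22, −0.02 and 0.65, and Lars2 had −0.19, −0.14 and 0.30. Of the 24 values, 14 were above 0 and none reached 2-fold, beside 0.423%, 0.521% and 0.481% of all genes tested that were 2-fold higher and 3.07%, 0.695% and 2.42% that were 2-fold lower. As mt- UMIs are part of the total, each other gene's share falls where they grow. Of all genes that are not mt-, 25.9%, 22.7% and 15.8% were above 0 in WT, 8-week db/db and HFD. Leaving mt- UMIs out of the total moves all such genes of a library alike: 21 of the 24 values were then above 0, as were 53.4%, 57.3% and 53.9% of those genes. Cell type was not held fixed in this comparison, and its part was not tested.

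The members were then set against each other as ratios of UMIs, which need no total. AY036118 gave 10.9 UMIs per 1000 UMIs of Gm42418 in WT, 16.6 in 8-week db/db, 6.34 in 16-week db/db and 27.4 in HFD, a 4.32-fold range. Across the depth bins the ratio ran from 9.78 to 14.8 in WT, 15.6 to 18.2 in 8-week db/db, 4.80 to 6.94 in 16-week db/db and 23.8 to 34.8 in HFD, so the ranges of the 4 libraries did not overlap. The stromal and macrophage gates gave nearby values within a library, with 11.3 in stromal and 9.42 in macrophage barcodes of WT and 26.2 and 29.3 in HFD. In 8-week db/db those gates gave 16.5 and 16.8, but its 122 endothelial barcodes gave 31.8 and its 189 erythroid barcodes 32.9. Lars2 per 1000 UMIs of Gm42418 was 18.3, 19.3, 23.4 and 14.0 in the same order of libraries, and in WT it went from 11.01 in the shallowest to 18.9 in the deepest bin and in 8-week db/db from 12.2 to 22.5.

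Among the nuclear RNAs, Neat1 per 1000 UMIs of Malat1 was 31.9 in WT, 22.4 in 8-week db/db, 9.53 in 16-week db/db and 36.7 in HFD. Kcnq1ot1 had the widest range of these ratios, 7.03-fold, with 10.2, 5.26, 1.45 and 9.11 in the same order. Gm26917 per 1000 UMIs of Malat1 depended on depth instead: in WT it went from 32.7 in the shallowest bin to 7.82 in the deepest, and in 8-week db/db from 17.8 to 5.74.

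**Figure D5:**
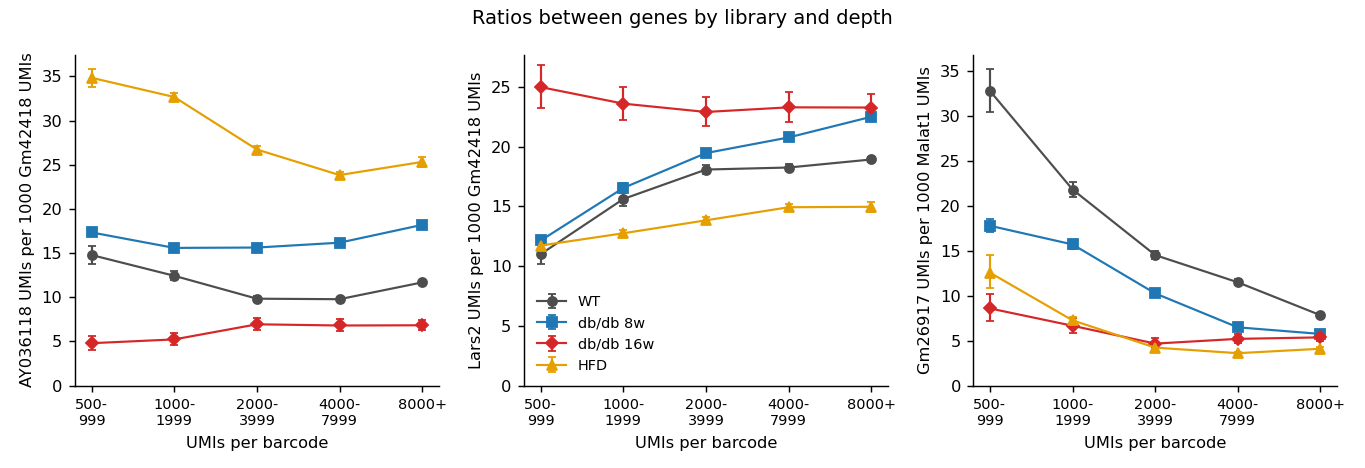
UMIs of AY036118 and of Lars2 per 1000 UMIs of Gm42418, and of Gm26917 per 1000 UMIs of Malat1, in 5 bins of UMIs per barcode, with a line per library and 95% intervals for counting error; the y axes are linear and start at 0. The AY036118 lines of the 4 libraries stay apart at every depth, with HFD highest (23.8 to 34.8) and 16-week db/db lowest (4.80 to 6.94), while Gm26917 per Malat1 is lower at each greater depth in WT and 8-week db/db.

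Within libraries the members were also set against each other barcode by barcode, at 1000 to under 4000 UMIs and thinned to 500 UMIs each (3254, 6194, 2941 and 11191 barcodes). These correlations share the library and the sum of UMIs and are weak, and they are given as a description. Spearman's rho of Malat1 with Neat1 was 0.42, 0.32, 0.24 and 0.28 in WT, 8-week db/db, 16-week db/db and HFD, and with Meg3 0.41, 0.28, 0.23 and 0.26. Gm42418 went with Lars2 (0.47, 0.43, 0.26 and 0.25) and with AY036118 (0.23, 0.34, 0.19 and 0.35). Malat1 and Gm42418, the members with the most UMIs, had −0.10, 0.27, 0.32 and −0.15. The sign of that pair thus differed between libraries, as did that of Gm42418 with the mt- share (−0.32, −0.05, 0.23 and 0.29).

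The genes most like each member were taken from the pattern over the 20 combinations of library and depth bin, by Pearson's r of log2(CPM + 10) among 11901 genes; the combinations share libraries, so r is a description without a test. Neat1 and Kcnq1ot1 were each other's nearest gene (0.988), followed for both by Uty, a gene of the Y chromosome. Gm42418 and Lars2 were likewise each other's nearest (0.958). Malat1 was nearest to Zcchc7 (0.973), Meg3 to Akap13 (0.973) and Gm26917 to 1700012D14Rik (0.952). AY036118 was nearest to mitochondrially encoded genes, mt-Nd6 (0.961), mt-Nd2 and mt-Co3. Much of this rests on 16-week db/db: without that library (15 combinations), 4 of the 24 nearest genes were again among the 3 nearest, among them mt-Nd6 for AY036118 (0.924) and Lars2 for Gm42418 (0.867).

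Other genes of the same structures and domains were counted in the same way. Of 18 genes for proteins of speckles and paraspeckles, such as Sfpq, Nono and Srrm2, none was 2-fold or more apart between shallow and deep barcodes in WT or 8-week db/db, 3 were higher in 16-week db/db and 2 were lower in HFD, beside the 20.3% and 34.4% of all genes given above. Between 16-week db/db and WT 1 of the 18 was 2-fold lower, with a median log2 ratio of −0.37 beside −0.25 for all genes tested, where Malat1 had −1.51 and Neat1 −3.25. Between the stromal and macrophage gates 1 of the 18 was 2-fold apart, in 16-week db/db only. Of the other long non-coding RNAs listed, such as Tug1, Pvt1 and Gas5, 7 of 15 tested were 2-fold lower in 16-week db/db than in WT and none higher, beside 27.6% of all genes lower and 17.3% higher, and the list's median log2 ratio was −0.22 beside −0.25 for all genes tested. The remaining lists stand beside the same shares of all genes. Of the imprinted genes described below, 8 of 12 tested were 2-fold lower in this comparison (median −1.42). So were all 12 immediate-early and heat-shock genes (−2.06) and 12 of 13 mt- genes (−3.06). Nova1 and Creb5, listed as leading genes of a Meg3 cluster, were both 2-fold lower (−5.11). Of 89 ribosomal protein genes, 24 were 2-fold higher and 2 lower (0.74).

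The imprinted genes listed beside Meg3 and Kcnq1ot1 leaned to stromal barcodes. By 2-fold or more, 10 of 11 tested were higher in the stromal than in the macrophage gate of WT, 9 of 11 in 8-week db/db, 5 of 6 in 16-week db/db and 8 of 9 in HFD, beside 25.9%, 25.3%, 19.6% and 18.6% of all genes tested, and none was lower. Shallow over deep, 3 of 10 were 2-fold lower in WT and 6 of 9 in HFD, with none higher in either, beside 30.9% and 34.4% of all genes lower, and 2 of 5 were 2-fold higher in 16-week db/db, beside 20.3% of all genes. Rian, the non-coding RNA downstream of Meg3 in the Dlk1-Dio3 domain, stood at 119 CPM in WT, 117 in 8-week db/db, 16.6 in 16-week db/db and 69.7 in HFD, and its shallow over deep log2 ratio in HFD was −2.73, beside −2.84 for Meg3. Rian also rose with Meg3 across barcodes, with cell type and depth not held fixed. In WT it stood at 59.6 CPM in the 5912 barcodes with no Meg3 among 500 thinned UMIs, 174 in the 1245 with 1, 354 in the 931 with 2 to 4 and 961 in the 230 with 5 or more. In HFD it was 28.5, 339 and 540 in the first 3 of these classes. The classes also differed in their cells and depth. In WT the stromal marker Pdgfra stood at 411, 637, 684 and 690 CPM in them. The macrophage marker C1qa stood at 1092, 131, 115 and 68.3 CPM. Median depth was 4329 UMIs in the first class of WT and 2204.5 in the last. The part of cell type in the rise of Rian was not tested.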

How the data were processed

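The authors made the deposited UMI counts with 10x Genomics 3′ chemistry and, per the labels, Cell Ranger 7.1.0 on mm10; the header of the count files names 6.0.0. Use of the strand and of intronic reads is not given in the sources used here. All barcodes as deposited were used, without quality filter, doublet removal or integration. The members and lists were chosen with earlier results of these data known. Counts were summed per library, depth bin, mt- share or marker gate and divided by the summed UMIs (CPM). Sums were given exact Poisson intervals, ratios exact conditional binomial intervals and shares exact (Clopper-Pearson) intervals at 95%, for counting error only. The share a 0 allows was 3 counts of the total. Genes with at least 200 UMIs over both sides were set against a 2-fold limit. A set of barcodes needed 50 barcodes. The 3 genes most like each member were named, among genes with at least 500 UMIs; the lists are those given. Simulated data were recovered before use. Sequences came from GENCODE vM21 and names from RefSeq (GRCm38.p6); a transcript stretch of Meg3 is not reported here. Alternatives were other denominators, the shallowest and deepest 25% of barcodes, quality limits, equal weights of barcodes or bins, stricter gates, and, added after the data were seen, sums inside gates and medians over genes. Python 3.11.15, numpy 2.4.6, scipy 1.17.1, pandas 2.3.3 and matplotlib 3.10.9 were used.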

Additional observations from a re-analysis of the deposited data

Results flagged for a closer look

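Some ratios had opposite signs in different libraries, at least 2-fold apart and with both counting intervals clear of 0; with 1 library per group the difference between libraries was not tested. For shallow over deep barcodes, these were Malat1 (log2 ratio 0.83 in 16-week db/db and −1.43 in HFD), Neat1 (1.25 and −0.96), Meg3 (0.99 and −2.84), Kcnq1ot1 (1.65 and −1.27) and Lars2 (2.40 in 16-week db/db and −0.41 in WT). All 5 take their positive value from 16-week db/db, the library that stood apart. Without it, signs were opposite too: Malat1 (0.57), Neat1 (0.58) and Meg3 (0.24) in WT and Kcnq1ot1 in 8-week db/db (0.17) were above 0 and all 4 below 0 in HFD, and Lars2 was below 0 in WT and above it in HFD (0.92). Meg3 was higher in barcodes with more mt- UMIs in 8-week db/db (0.53) and lower in HFD (−0.61). Neat1 over all depths was higher in stromal than in macrophage barcodes in 16-week db/db (0.43) and 8-week db/db (0.33), and lower in HFD (−0.87) and WT (−0.78). At 1000 to under 4000 UMIs the first of these was −0.08, with an interval that includes no difference.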

How the results depend on the processing

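No paired analysis was possible because each group had 1 library. The summed levels of the 4 long non-coding RNAs and of the other 4 genes kept their direction in every setting counted here, but not in the stromal gate over all depths (given last against WT). Together with the counts of members by mt- share and by gate and of nearest genes, 89 settings were run. Of these 85 moved, in the sums by more than counting error. Against WT, values for 8-week db/db, 16-week db/db and HFD follow, for the long non-coding RNAs and then the other 4, from −0.08, −1.58 and −0.17, and −0.62, −2.93 and −0.65, as reported. Without mt- UMIs in the total: −0.10, −1.70, −0.034; −0.64, −3.04, −0.51. Under the quality limits: −0.047, −1.46, −0.10; −0.70, −2.93, −1.01. By the mean share over barcodes: −0.35, −1.66, −0.72; −0.40, −2.32, −0.57. With equal weight of depth bins: −0.38, −1.75, −0.89; −0.53, −2.43, −0.66. By the median of the 4 genes: −0.51, −3.27, −0.23; −0.49, −2.76, −0.86. In the stromal gate at 1000 to under 4000 UMIs: −0.32, −1.06, −0.58; −0.10, −1.91, −0.92. In the macrophage gate: −0.59, −1.80, −0.67; −0.81, −2.85, −1.12. The stromal gate over all depths, not among the 89 settings, gave 0.24, −0.48 and 0.34 for the long non-coding RNAs. Their sum thus turned sign in 8-week db/db and HFD. The other 4 genes had −0.38, −2.15 and −0.75 there.

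Shallow over deep, from 0.56, 0.24, 0.84 and −1.43, and 0.36, 1.02, 2.29 and 1.28 in WT, 8-week db/db, 16-week db/db and HFD. Without mt- UMIs: 1.18, 0.51, 0.87, −0.81; 0.98, 1.30, 2.33, 1.90. By the deepest and shallowest 25% of barcodes: 1.38, 0.092, 0.91, −0.81; 0.68, 1.10, 2.33, 1.17. Under 15% mt-, with too few barcodes in HFD: 0.34, 0.43, 0.80; 0.64, 1.15, 2.28. By the median of the 4 genes: 0.40, 0.20, 1.12, −1.35; 0.56, 1.04, 2.05, 1.10. In the stromal gate: 0.73, 0.043, 0.97, −1.66; 0.37, 0.71, 2.63, 1.17. In the macrophage gate, with too few barcodes in WT: 0.87, 2.18, −1.18; 1.57, 2.14, 1.46.

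Of 56 values of single members under other settings, 41 moved and 8 turned sign. Gm26917 between the gates of WT was 0.066 under the stricter gate. Without mt- UMIs in the total, the ratio of high to low mt- share was 0.035 for AY036118 and 0.059 for Lars2 in WT, 0.21 for Gm42418, 0.26 for AY036118 and 0.14 for Lars2 in 8-week db/db, and 0.17 for Malat1 and 0.10 for Kcnq1ot1 in HFD. Members 2-fold higher in stromal barcodes went from 13 to 16 of 32 gene and library pairs under the stricter gate. The cause of these shifts was not tested. With 1 pool per group, group, litter, preparation and sequencing cannot be told apart. Low counts, such as 5 UMIs of Meg3 in the macrophage gate of 16-week db/db at 1000 to under 4000 UMIs, limit precision.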
